A study of Gallus gallus with 2 samples.

Results

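The AP-2 transcription factor family has 5 members in the chick gene tables of this study, TFAP2A, TFAP2B, TFAP2C, TFAP2D and TFAP2E, which were taken by name from the 23967 genes of each matrix. The data are 2 single cell libraries of retinal cells sorted for the reporter plasmid OTX2ECR2::GFP. It marks restricted retinal progenitor cells (RPCs) and their photoreceptor (PR) progeny, and in earlier work cited by the study also LHX1-positive horizontal cells. The retinas came from female chick embryos, were electroporated ex vivo at embryonic day 5 (E5) and were cultured for 48 h. The CTRL library came from eyes given the empty p18 vector, which carries Cas9 under the CAG promoter and the guide scaffold but no guide. The OTX2CRISPR library came from the contralateral eyes, given the same vector with guide g2 against OTX2, the homeobox gene that photoreceptors need. Both libraries therefore carry Cas9, the reporter and the culture step, the mutations are mosaic, and each library pools cells from several retinas. There was 1 library per condition and no replicate, so no test was run. The intervals given are 95% intervals that cover counting error only, and UMIs from the same cell are not independent of each other.

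AP-2 proteins bind GC-rich DNA as dimers through a basic helix-span-helix domain, and their activity is raised by CITED and EP300 family coactivators and repressed by KCTD1 and KCTD15. In the mouse retina TFAP2A and TFAP2B act in horizontal cell (HC) and amacrine cell formation downstream of PTF1A, and TFAP2C marks amacrine cells. TFAP2D and TFAP2E are better known outside the retina, TFAP2D in the mouse midbrain and TFAP2E in the mouse olfactory system. In the chick, axon-bearing HCs express LHX1 and axonless HCs express ISL1.

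After the study's cell filter the libraries held 5073 CTRL and 4928 OTX2CRISPR cells, with a median of 2779 and 2566 UMIs (transcript molecules) per cell, and 38 barcodes occurred in both. Clusters were built without the AP-2 genes or any marker gene and were named from marker lists that contain no AP-2 gene. The class sizes differed widely between the libraries. In CTRL, 1298 cells were restricted RPC-like, 2386 fell in the 3 cone-like classes (cone homotypical PC, cone PR1 and cone PR2), 90 were HC1-like and 433 HC2-like. In OTX2CRISPR, 514 cells were restricted RPC-like, 108 cone-like, 530 HC1-like, 200 HC2-like, 561 RGC-like (retinal ganglion cells) and 1790 were of the class defined by BRINP2 and CRABP1, against 151 and 33 cells of these last classes in CTRL. A cluster led by NPY and TNFSF10 was left unnamed (345 and 909 cells). Its best match was the study's mixed amacrine, HC and RGC class, with 4 of 4 markers raised (PTF1A, DLX1, DLX2 and HEY1). That class scored highest in only 28.5% of its cells. How many cells were restricted RPC-like depended on how the clusters were cut. At resolution 1 a cluster with NPY and TNFSF10 among its leading genes, of 27 CTRL and 629 OTX2CRISPR cells, was named restricted RPC-like. So was another of 225 and 575 cells, beside that of 1090 and 402 cells. A further cluster led by DLX2, PTF1A and HEY1, of 326 CTRL and 281 OTX2CRISPR cells, was left unnamed there. The study's own clusters showed no severe change in the restricted RPC share. The HC1-like cluster had all 8 HC1 markers raised, LHX1 and ONECUT genes included. The HC2-like cluster had 6 of 7 HC2 markers raised, but these markers were drawn by the study from the same cells, and most cells in it had no ISL1 UMI, as described with the LHX1 and ISL1 groups. In OTX2CRISPR 54 of its cells had LHX1 but no ISL1 UMI and 28 the reverse, against 19 and 83 in CTRL. Markers of non-retinal tissues that use AP-2 genes were scarce: the neural crest and periocular list summed to 58 CTRL and 64 OTX2CRISPR UMIs over all cells, and the surface ectoderm list to 126 and 165.

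TFAP2A, TFAP2B, TFAP2C and TFAP2E were concentrated in the HC1-like and HC2-like clusters, whereas TFAP2D was highest in restricted RPC-like cells, lower in cones, RGC-like and BRINP2/CRABP1 cells, and lowest in HC-like and multipotent RPC-like cells. In the HC-like clusters together, TFAP2A, TFAP2B, TFAP2C and TFAP2E were 188-, 234-, 85.5- and 160-fold higher than in all other CTRL cells, and 188-, 82.3-, 54.7- and 33.1-fold higher in OTX2CRISPR. These 4 members all passed a 2-fold difference in that direction, which 6.94% of CTRL and 5.32% of OTX2CRISPR genes also did. Such background shares are of genes with at least 100 UMIs over both sets compared. Outside the HC-like clusters TFAP2C had 32 UMIs in CTRL and 25 in OTX2CRISPR, TFAP2E 9 and 38, and TFAP2B 84 in CTRL. These members reached 100 UMIs only through the HC-like cells in which they were high. That all 4 passed is therefore no independent result. TFAP2D went the other way. It was 17.9-fold lower in HC-like cells of CTRL and 7.72-fold lower in those of OTX2CRISPR, where 16.3% and 8.34% of genes were at least 2-fold lower. With classes drawn from gates on marker UMIs in place of clusters, the directions held but the log2 ratios were smaller, at 3.67, 3.70, 1.38 and 4.66 for TFAP2A, TFAP2B, TFAP2C and TFAP2E in CTRL and at 4.63, 3.67, 2.76 and 3.46 in OTX2CRISPR, with TFAP2D at -1.98 and -1.18.

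**Figure D1:**
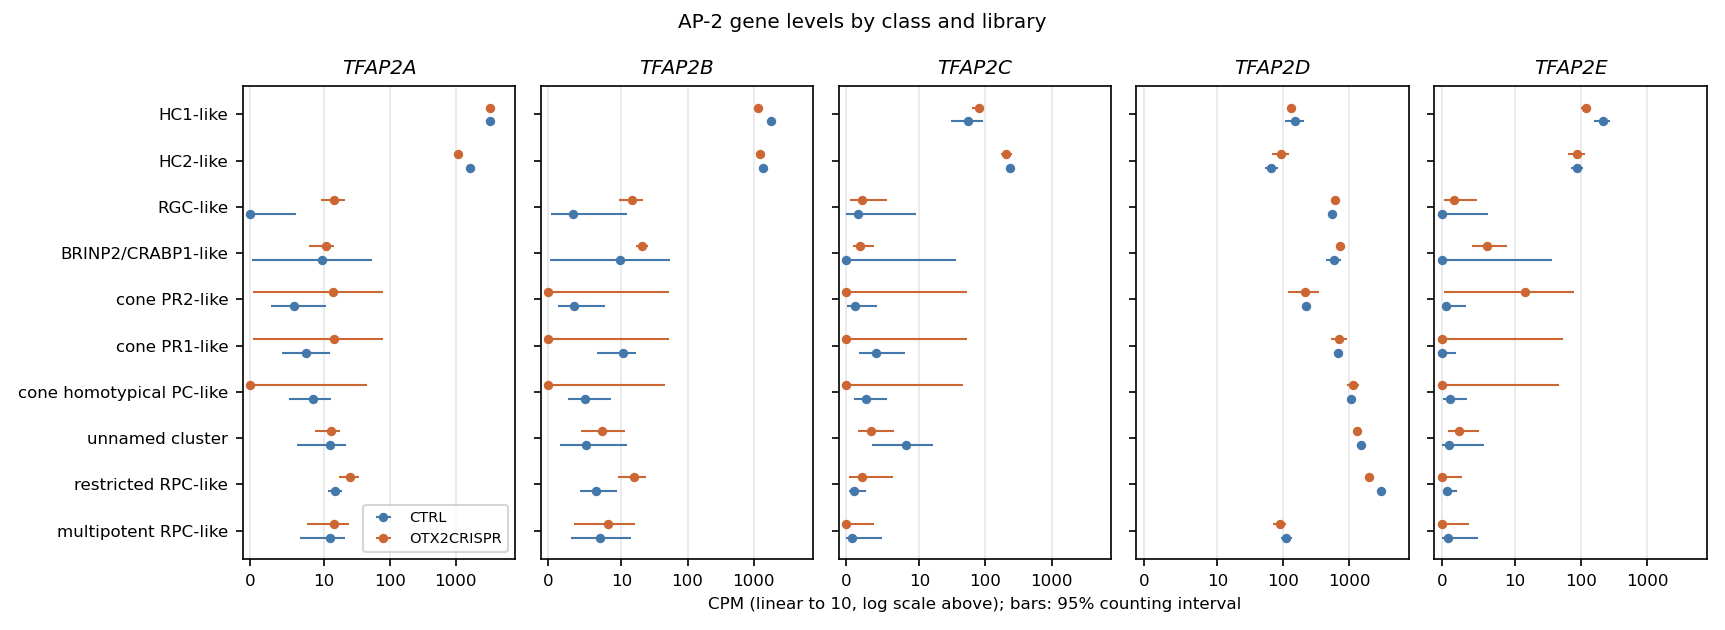
Level of each AP-2 gene in CPM, UMIs per 1000000 (horizontal axis, linear up to 10 and logarithmic above) in the 10 classes (rows) of the CTRL and OTX2CRISPR libraries. Points are the summed UMIs of a class and bars are 95% counting intervals; TFAP2A, TFAP2B, TFAP2C and TFAP2E stand out in the HC1-like and HC2-like rows, and TFAP2D peaks in the restricted RPC-like row.

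TFAP2D was the most abundant member by far. It took 76.9% of all AP-2 UMIs in CTRL and 60.4% in OTX2CRISPR, and 99.2% of those in CTRL restricted RPC-like cells. These 3′ libraries count a molecule once whatever its length, although capture can differ between genes. Levels are given as CPM, the UMIs of a gene per 1000000 UMIs of the cells in question. Restricted RPC-like cells had 2954 CPM of TFAP2D (12681 UMIs) in CTRL and 1998 (2725 UMIs) in OTX2CRISPR. In multipotent RPC-like cells, which precede the restricted state, the level was 112 in CTRL and 87.8 in OTX2CRISPR, so that restricted RPC-like cells were 26.5-fold and 22.7-fold higher. A 2-fold difference in this direction was found in 8.48% of CTRL and 10.2% of OTX2CRISPR genes.

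Among the cone classes TFAP2D was highest in homotypical PC-like, lower in PR1-like and lowest in PR2-like cells, in both libraries. This is an order of levels, and no path between the classes was tested. Cone homotypical PC-like cells, the dividing cone precursors, had 1049 CPM in CTRL and 1140 in OTX2CRISPR. Cone PR1-like cells had 679 and 705, and cone PR2-like cells had 223 and 212. Restricted RPC-like cells were above the homotypical precursors by 2.82-fold in CTRL and by 1.75-fold in OTX2CRISPR, a step of which 7.05% and 14.5% of genes made at least 2-fold upwards. The step from homotypical PC-like to PR1-like cells was 1.54-fold in CTRL and 1.62-fold in OTX2CRISPR, and that from PR1-like to PR2-like cells was 3.04-fold in CTRL, where 3.32% of genes were at least 2-fold higher. In OTX2CRISPR the cone PR1-like and PR2-like levels rest on 49 and 15 UMIs, too few for a call. The 3 cone-like classes of OTX2CRISPR held only 33, 36 and 39 cells. Called cell cycle phase also differed between the classes. In CTRL 96.8% of homotypical PC-like cells were called S or G2/M, against 8.82% of PR1-like and 11.1% of PR2-like cells. The 26 homotypical PC-like cells of CTRL called G1 had 219 CPM (12 UMIs), below the level of all PR1-like cells. The part of phase in this order was not tested.

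RGC-like and BRINP2/CRABP1 cells kept TFAP2D at an intermediate level. RGC-like cells had 536 CPM in CTRL and 603 in OTX2CRISPR. Restricted RPC-like cells were 5.51-fold and 3.31-fold above them, where 17.3% and 11% of genes reached 2-fold. Called cell cycle phase differed here, with 86.1% and 77.8% of restricted RPC-like cells but 1.99% and 1.60% of RGC-like cells called S or G2/M. Among cells called G1, restricted RPC-like cells had 1464 CPM in CTRL and 989 in OTX2CRISPR, and RGC-like cells had 542 and 592. The part of phase in these folds was not tested. BRINP2/CRABP1 cells had 588 in CTRL (60 UMIs in 33 cells) and 718 in OTX2CRISPR (3260 UMIs). The CTRL cells of this class depended on the cut. They were 6 at resolution 1, 3 with 20 principal components and 8 with marker and AP-2 genes kept. At resolution 0.4 they were 33, and without cell cycle regression 26. In the main clusters BRINP2/CRABP1 cells were 1.19-fold above RGC-like cells in OTX2CRISPR, and in CTRL the 1.10-fold difference was within counting error. In the unnamed cluster TFAP2D was 1479 in CTRL and 1288 in OTX2CRISPR, next below the restricted RPC-like cells. Low levels were found in the HC-like cells, at 148 and 133 in HC1-like cells and 65.8 and 91.1 in HC2-like cells, beside the multipotent RPC-like cells.

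Shares of cells with at least 1 UMI were also highest in restricted RPC-like cells and, with the cones pooled, lowest in HC-like and multipotent RPC-like cells, but the order among the classes between them was not that of the levels. Each cell was thinned to 1000 UMIs for this purpose, which left out 57 CTRL and 92 OTX2CRISPR cells of lower depth. TFAP2D was detected in 81.1% of CTRL and 71.3% of OTX2CRISPR restricted RPC-like cells. In the pooled cones, whose levels were 709 and 706 CPM, it was found in 35.5% and 29.9%, in RGC-like cells in 37.8% and 40.8%, and in BRINP2/CRABP1 cells in 37.5% and 43.5%. HC1-like cells had it in 6.67% and 7.71%, and HC2-like cells in 4.24% and 8.59%, near the 7.98% and 7.14% of multipotent RPC-like cells. Without thinning, a restricted RPC-like cell of CTRL had a median of 9 TFAP2D UMIs (quartiles 4 and 14), and that of OTX2CRISPR a median of 4 (quartiles 1 and 8).

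Genes with TFAP2D's pattern were sought over the 16 class and library units of at least 50 cells, which all come from the same 2 libraries. The highest correlations on the log2 scale among 10190 genes were with ATP8A2 (r = 0.880), HEG1 (r = 0.877), PFKFB4L (r = 0.869), C20orf27 (r = 0.853) and MYBL1 (r = 0.840). OTX2 itself had r = 0.657, and TFAP2A had r = -0.60. TFAP2A, TFAP2B and TFAP2E in contrast were among the genes closest to each other. TFAP2B had r = 0.988 with TFAP2A and 0.986 with TFAP2E. The vesicular inhibitory transporter gene SLC32A1 was close to TFAP2B (r = 0.984) and to TFAP2C (r = 0.970), and TFAP2C was closest to CD82 (r = 0.976) and to SOX3 (r = 0.974). TFAP2B and TFAP2D are direct neighbours in RefSeq's annotation of the GRCg7b assembly, between PKHD1 and CRISP2. PKHD1 and CRISP2 had no UMI in the HC-like or the restricted RPC-like cells of either library.

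Within restricted RPC-like cells TFAP2D followed the called cell cycle phase. In CTRL it was 1464 CPM in cells called G1 and 3142 in cells called S or G2/M. In OTX2CRISPR the corresponding levels were 989 and 2233. In CTRL the level was 829 in cells called S alone and 3452 in those called G2/M, so the increase lay with the G2/M calls. OTX2CRISPR cells had 669 and 2450. In cone homotypical PC-like cells of CTRL, G1 and S or G2/M cells had 219 and 1067. These phase calls rest on the expression of cycle genes alone.

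The OTX2CRISPR library had less TFAP2D in restricted RPC-like cells, with a log2 ratio to CTRL of -0.56 (95% interval -0.62 to -0.50). This was short of 2-fold, a size that 1.51% of genes in these cells reached downwards and 1.56% upwards. The ratio was below 0 in each phase and OTX2 stratum examined, although the interval of called S cells alone reached across 0 (-0.31, -0.66 to 0.03). In cells called G1 the log2 ratio was -0.57, and in cells called S or G2/M together it was -0.49. Among cells thinned to 1000 UMIs, those without an OTX2 UMI had 2728 CPM of TFAP2D in CTRL and 1751 in OTX2CRISPR. Cells with 1 OTX2 UMI had 2903 and 1840, and cells with 2 or more had 3218 and 2342. Within each library the share of TFAP2D-positive cells was higher with more OTX2 UMIs, from 75.4% to 85.6% in CTRL and from 66.4% to 80.0% in OTX2CRISPR. The study's amplicon sequencing found a mutation in most OTX2 reads of the OTX2CRISPR cells. OTX2 UMIs in that library therefore do not measure intact OTX2. OTX2 was at 1502 CPM in restricted RPC-like cells of CTRL and at 1159 in those of OTX2CRISPR, and 86.1% and 77.8% of these cells were called S or G2/M. The part of either in the TFAP2D difference was not tested. The size of the difference depended on how the class was drawn, with log2 ratios down to -1.05 over the other ways tried. The -0.49 of S or G2/M cells belongs to a part of the main class and not to another way of drawing it.

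**Figure D2:**
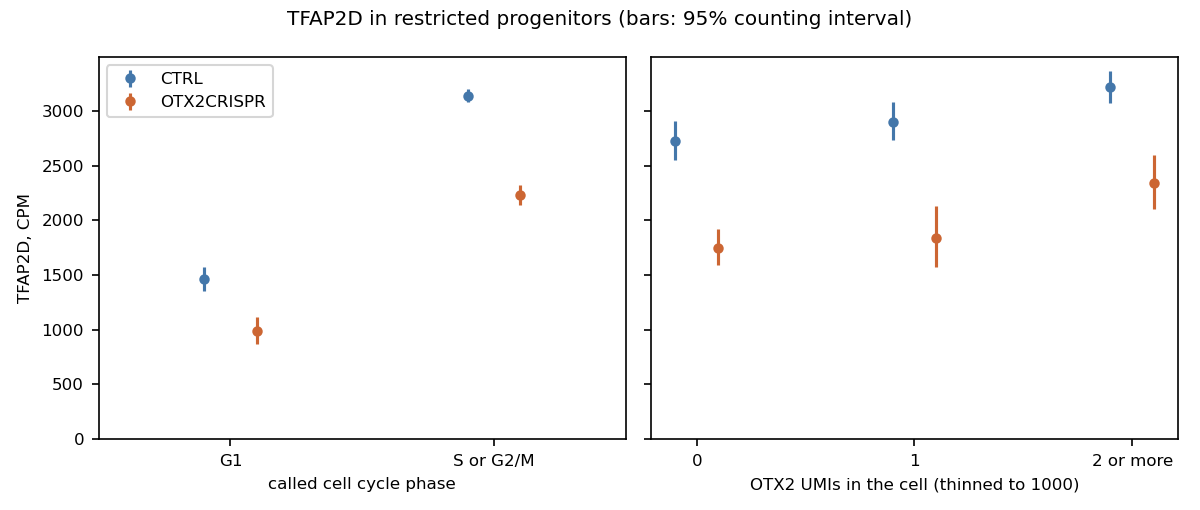
TFAP2D in restricted RPC-like cells, in CPM (vertical axis), by called cell cycle phase (left) and by the number of OTX2 UMIs in the thinned cell (right). Points are summed UMIs of CTRL and OTX2CRISPR cells with 95% counting intervals; OTX2CRISPR lies below CTRL in all 5 strata, at 989 against 1464 in G1 and at 2233 against 3142 in S or G2/M.

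In the other TFAP2D-bearing classes the ratio was closer to 0 or above it. In the pooled cones the log2 ratio was -0.01 (-0.25 to 0.22), in RGC-like cells 0.17 (-0.01 to 0.35) and in BRINP2/CRABP1 cells 0.29 (-0.08 to 0.68), intervals that all reach across 0. Whether these ratios differ from that of the restricted RPC-like cells was not tested. The unnamed cluster had -0.20 (-0.29 to -0.11). Within its phases the ratio was lower, at -0.69 in G1 and -0.52 in S or G2/M, and 22.3% of its CTRL cells but 70.1% of its OTX2CRISPR cells were called S or G2/M. This cluster may also hold unlike cells in the libraries. At resolution 1 the cluster with NPY and TNFSF10 had 27 CTRL and 629 OTX2CRISPR cells, and that led by DLX2 and PTF1A had 326 and 281. The part of this makeup in the ratio was not tested.

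Over the whole libraries TFAP2D went from 1296 CPM in CTRL to 823 in OTX2CRISPR, a log2 ratio of -0.66 (-0.69 to -0.62). The classes that held it differed as well. In CTRL, 66.2% of TFAP2D UMIs were in restricted RPC-like cells and 23.1% in cones. In OTX2CRISPR, 25.1% were in restricted RPC-like cells, 1.44% in cones, 30.6% in the unnamed cluster and 10.2% in RGC-like cells, and the BRINP2/CRABP1 cells held 3260 of the 10869 UMIs. When CTRL levels were given the OTX2CRISPR class sizes, the log2 ratio was -0.52, and when OTX2CRISPR levels were given the CTRL class sizes it was -0.34. These shares and ratios rest on the main clusters, whose restricted RPC-like count depended on the cut, and were not computed for other clusterings.

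The other 4 members went different ways between the whole libraries. TFAP2A went from 203 to 340 CPM (3006 and 4496 UMIs, log2 ratio 0.74, 0.68 to 0.81). TFAP2E went from 11.4 to 16.7 (168 and 220 UMIs, log2 ratio 0.55, 0.25 to 0.85). TFAP2B was at 153 and 165 (log2 ratio 0.11, 0.03 to 0.20). TFAP2C went from 22.7 to 16.9 (335 and 223 UMIs, log2 ratio -0.43, -0.68 to -0.18). None of the 5 members passed 2-fold, whereas 6.21% of genes were at least 2-fold higher and 3.93% at least 2-fold lower. With equal weight per cell the log2 ratio of TFAP2A was 1.06 and so past 2-fold.

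Each library's class sizes were also combined with the other's class levels, as for TFAP2D. The part of either in these shifts was not tested. CTRL levels at OTX2CRISPR class sizes gave log2 ratios of 0.82 for TFAP2A, 0.53 for TFAP2B, -0.49 for TFAP2C and 0.96 for TFAP2E, whereas OTX2CRISPR levels at CTRL class sizes gave -0.36, -0.23, -0.22 and -0.05. In CTRL 67.3% of TFAP2A UMIs were in HC2-like and 28.1% in HC1-like cells, and in OTX2CRISPR 12.3% and 84.2%. TFAP2C had 86.3% of its CTRL and 48.0% of its OTX2CRISPR UMIs in the HC2-like cluster, and 254 of its 289 UMIs there in CTRL came from cells with neither LHX1 nor ISL1, whose markers are given with these gates.

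**Figure D3:**
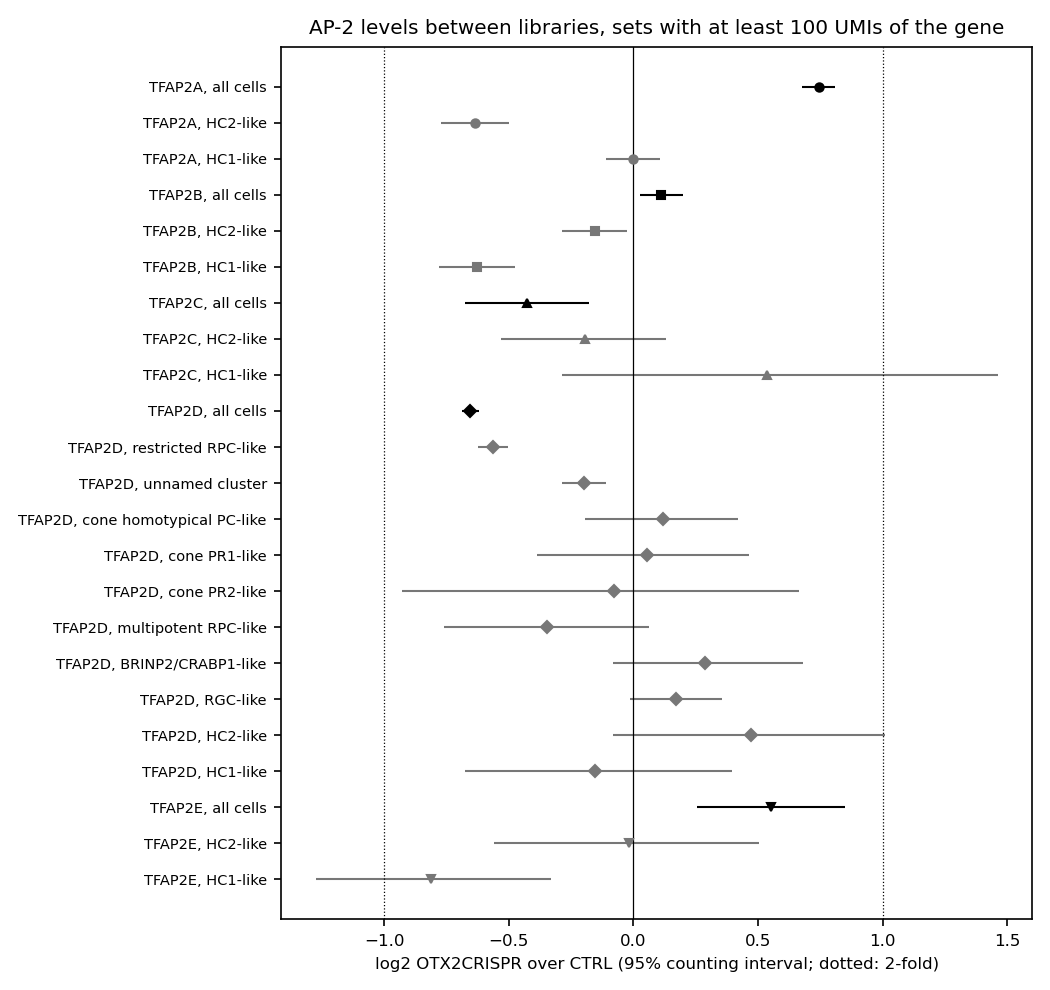
Log2 ratio of OTX2CRISPR over CTRL (horizontal axis) for each AP-2 gene in all cells (black) and in each class with at least 100 UMIs of the gene over both libraries (grey), with 95% counting intervals. Dotted lines mark 2-fold; TFAP2A is at 0.74 in all cells and at -0.63 in HC2-like cells, and TFAP2D is at -0.66 in all cells and at -0.56 in restricted RPC-like cells.

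HC1-like and HC2-like cells differed in the proportions of the family. TFAP2A was at 3279 CPM in HC1-like cells of CTRL and at 1665 in HC2-like cells, and in OTX2CRISPR at 3277 and 1072. The log2 ratio of HC1-like over HC2-like cells was 0.98 in CTRL and 1.61 in OTX2CRISPR. TFAP2C had the opposite preference, with 54.4 and 238 in CTRL and 78.8 and 208 in OTX2CRISPR, and log2 ratios of -2.13 and -1.40. TFAP2B had 1826 and 1402 in CTRL and 1181 and 1259 in OTX2CRISPR, so its ratio was 0.38 in CTRL and -0.09 in OTX2CRISPR. TFAP2E had 210 and 86.4 in CTRL and 120 and 85.3 in OTX2CRISPR, with ratios of 1.28 and 0.49. In this comparison 5.29% of CTRL genes were at least 2-fold higher and 6.11% at least 2-fold lower in HC1-like cells, against 6.84% and 2.22% in OTX2CRISPR.

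Within the HC-like clusters the members differed between libraries by less than 2-fold. TFAP2A in HC1-like cells differed by less than its counting error (log2 ratio -0.00, -0.11 to 0.11), whereas TFAP2A in HC2-like cells was lower in OTX2CRISPR (-0.63, -0.77 to -0.50). TFAP2B showed the reverse arrangement, with -0.63 (-0.78 to -0.47) in HC1-like and -0.16 (-0.29 to -0.02) in HC2-like cells. TFAP2E was lower in HC1-like cells (-0.81, -1.28 to -0.33) and at -0.02 in HC2-like cells. TFAP2C had -0.20 in HC2-like cells and 0.53 in HC1-like cells (-0.28 to 1.46), with intervals across 0. At least 2-fold lower levels were found for 0.655% of genes in HC1-like and 0.792% in HC2-like cells, and at least 2-fold higher levels for 1.8% and 1.17%. HC1-like cells of CTRL numbered only 90, and their median depth was 2668.5 UMIs against 2057 in OTX2CRISPR. The mix of LHX1 and ISL1 cells in the HC2-like cluster differed between the libraries, and its part in these ratios was not tested.

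Detection in single cells followed the levels. TFAP2A was found in 90.0% of CTRL and 79.6% of OTX2CRISPR HC1-like cells after thinning, and in 64.5% and 48.5% of HC2-like cells. TFAP2B was found in 72.2% and 50.7% of HC1-like and in 60.0% and 54.0% of HC2-like cells. Cones, taken as cells without HC identity, gave 0.51% and 0.93% for TFAP2A and 0.51% and 0% for TFAP2B at a median depth of 2463 and 1924.5 UMIs, beside 2727 and 2468 in HC2-like cells. TFAP2C was found in 22.4% and 16.2% of HC2-like cells, against 0.30% and 0% of cones, where 0 of 107 cells allows a share of up to 2.80%. TFAP2E was found in 15.6% and 9.83% of HC1-like and in 7.76% and 5.56% of HC2-like cells, against 0.042% and 0.93% of cones, the latter being 1 of 107 cells.

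The members occurred together in HC-like cells more than outside them. Of TFAP2A, TFAP2B, TFAP2C and TFAP2E, 2 were detected in 53 of 90 HC1-like cells of CTRL and 3 in 11 cells. In OTX2CRISPR HC1-like cells, 218 of 519 had 2 of them and 8.86% had 3, and 13.5% had none. In HC2-like cells 40.2% had 2 in CTRL and 33.8% in OTX2CRISPR, and none was detected in 15.1% and 26.8%. Outside the HC-like clusters 98.4% of CTRL and 97.5% of OTX2CRISPR cells had none of the 4.

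TFAP2A and TFAP2B were found in the same HC2-like cells more often than their separate shares give. The number of HC2-like cells with both was 193 in CTRL where 164.4 were expected, and 68 in OTX2CRISPR where 51.9 were expected. TFAP2B was present in 70.4% of TFAP2A-positive and 41.1% of TFAP2A-negative CTRL cells, and in 70.8% and 38.2% of those of OTX2CRISPR. In HC1-like cells of CTRL the pair was at expectation, 58 against 58.5. In those of OTX2CRISPR it was found in 232 cells against 209.3, with TFAP2B in 56.2% of TFAP2A-positive and 29.2% of TFAP2A-negative cells. For TFAP2E with TFAP2A the values are given for OTX2CRISPR HC1-like cells alone. There 50 of the 51 TFAP2E-positive cells also had TFAP2A (40.6 expected).

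TFAP2C and TFAP2D did not follow this pairing. TFAP2C was found in 21.2% of TFAP2A-positive and 24.5% of TFAP2A-negative HC2-like cells of CTRL, and in 15.6% and 16.7% of those of OTX2CRISPR. TFAP2D and TFAP2B, the neighbouring genes, were seldom found in the same HC-like cell. In OTX2CRISPR HC1-like cells TFAP2D was present in 3.80% of TFAP2B-positive and 11.7% of TFAP2B-negative cells. In OTX2CRISPR HC2-like cells these shares were 3.74% and 14.3%, and in CTRL HC2-like cells 2.35% and 7.06%. In CTRL HC1-like cells TFAP2D was found in only 6 of 90 cells, each of which also had another AP-2 member. TFAP2D-positive HC1-like cells of OTX2CRISPR had OTX2 in 17.5%, against 2.92% of TFAP2D-negative cells, which rests on 7 cells with both.

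PTF1A, which acts upstream of horizontal and amacrine fates, was inversely associated with TFAP2A and TFAP2B in HC2-like cells. In CTRL it was found in 8.63% of TFAP2B-positive and 28.8% of TFAP2B-negative cells, and in OTX2CRISPR in 15.9% and 39.6%. For TFAP2A the shares were 13.1% and 23.2% in CTRL and 15.6% and 37.3% in OTX2CRISPR. ISL1 was found more often in TFAP2E-positive than in TFAP2E-negative HC2-like cells. In CTRL 60.6% of TFAP2E-positive and 14.3% of TFAP2E-negative cells had an ISL1 UMI, and in OTX2CRISPR 54.5% and 11.8%, although only 33 and 11 cells were TFAP2E-positive. TFAP2C-positive cells of CTRL had ISL1 in 4.21%, against 21.8% of TFAP2C-negative cells, whereas in OTX2CRISPR the shares were 15.6% and 13.9%. The HC2-like cluster mixes cells with ISL1 only (83 in CTRL and 28 in OTX2CRISPR), with LHX1 only (19 and 54) and with both (19 and 4). Its other cells had neither LHX1 nor ISL1 (312 and 114). Among HC-like cells of CTRL, ISL1 cells had 19.6 CPM of PTF1A and cells with neither had 325. TFAP2B was at 2061 and 1163 in these groups, TFAP2E at 259 and 23.1, and TFAP2A at 1391 and 1739. The part of this mixture in the shares was not tested.

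**Figure D4:**
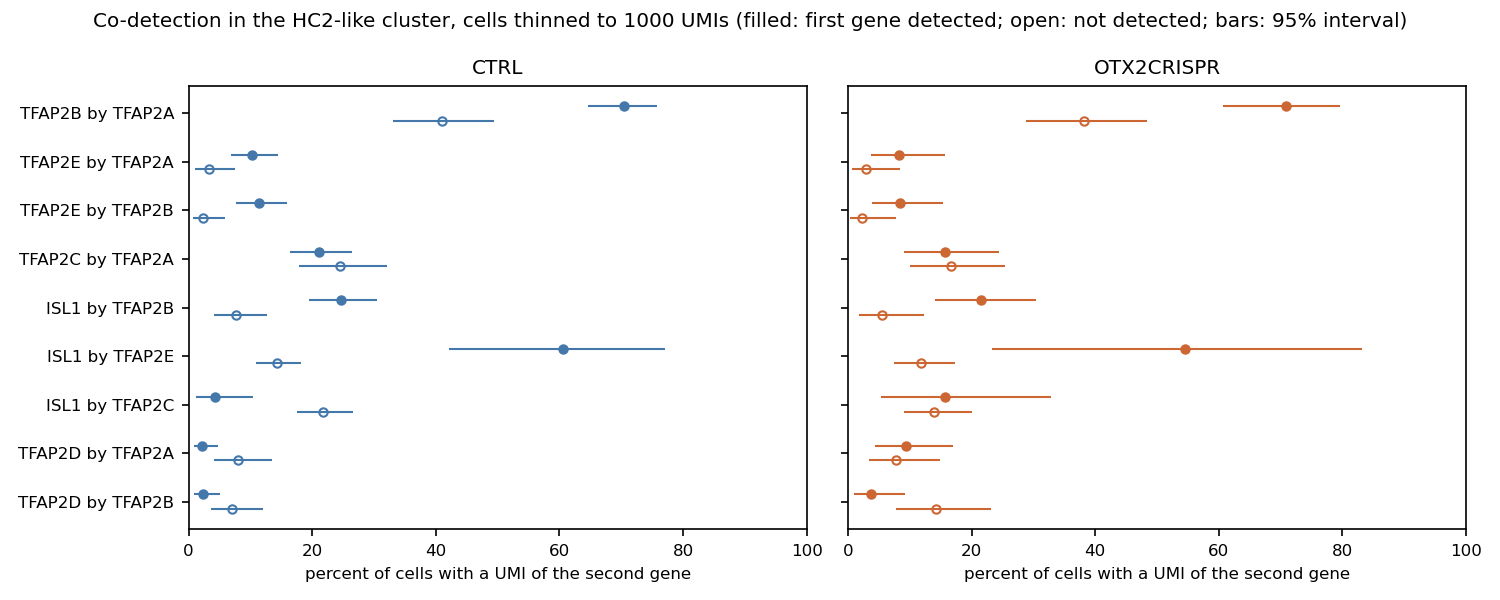
Percent of HC2-like cells with a UMI of the second gene of a pair (horizontal axis), in cells with (filled) and without (open) a UMI of the first gene, in the CTRL (left) and OTX2CRISPR (right) libraries after thinning to 1000 UMIs per cell. Bars are 95% Clopper-Pearson intervals; TFAP2B stands at 70.4% and 70.8% in TFAP2A-positive cells against 41.1% and 38.2% in TFAP2A-negative cells.

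The labels of the HC types rest on LHX1 and ISL1, so the cells of the HC1-like and HC2-like clusters together were also grouped by these UMIs. In CTRL 96 cells had LHX1 only, 85 had ISL1 only, 26 had both and 316 had neither. In OTX2CRISPR the numbers were 487, 37, 16 and 190. The cells with neither made up 312 of the 433 CTRL and 114 of the 200 OTX2CRISPR HC2-like cells. The others with neither, 4 in CTRL and 76 in OTX2CRISPR, were HC1-like, so the makeup of this group differed between the libraries. Markers of the cells with neither were divided. The HC2 marker list, which the study drew from these cells, summed to 3598 CPM in them in CTRL, against 4366 in ISL1 cells and 1874 in LHX1 cells, and to 2794, 3990 and 1915 in OTX2CRISPR. Genes that horizontal cells share were lower in them, in CTRL above all. ONECUT1 was at 255 CPM in them, against 1250 in LHX1 cells and 1105 in ISL1 cells, and PROX1 at 52.0 against 554 and 725. In OTX2CRISPR the cells with neither had 809 CPM of ONECUT1 and 192 of PROX1. In CTRL PAX6 was at 1929 in them against 867 and 1301, and NRXN3 at 1054 against 353 and 266. A list of 7 amacrine genes, PAX6 included, summed to 3405 CPM in them in CTRL, against 2276 in LHX1 and 1956 in ISL1 cells. In OTX2CRISPR the sums were 3060, 2679 and 2297. Among its genes in CTRL, MEIS2 was at 144 against 26.0 and 7.84, and PRDM13 at 865 against 584 and 325. PTF1A was at 325 against 588 and 19.6, SLC32A1 at 137 against 115 and 263, and GAD1 at 3.46 against 96.7 and 39.2. NEUROD6 had 1 UMI in them and 0 in the LHX1 and ISL1 cells. Whether the cells with neither gene are amacrine was not tested, so no other name is given to them here.

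The LHX1 and ISL1 cells used TFAP2A and TFAP2B in different proportion. TFAP2A was at 3314 in LHX1 cells of CTRL and at 1391 in ISL1 cells, and in OTX2CRISPR at 3210 and 1446. TFAP2B was at 1744 and 2061 in CTRL and at 1214 and 2123 in OTX2CRISPR. As a result the log2 ratio of TFAP2A over TFAP2B was 0.93 (0.76 to 1.09) in LHX1 cells and -0.57 (-0.77 to -0.37) in ISL1 cells of CTRL, and 1.40 (1.31 to 1.49) and -0.55 (-0.87 to -0.24) in those of OTX2CRISPR. At least 2-fold higher levels in LHX1 than in ISL1 cells, which TFAP2A reached in both libraries, were found for 3.43% of CTRL and 7.93% of OTX2CRISPR genes. TFAP2C and TFAP2D had the same sign by gates as by clusters, from only 24 and 11 TFAP2C UMIs and 11 and 8 TFAP2D UMIs in ISL1 cells. For TFAP2C the log2 ratios of LHX1 over ISL1 cells were within counting error, at -0.57 (-1.56 to 0.38) in CTRL and -0.18 (-1.07 to 0.87) in OTX2CRISPR. For TFAP2D they were 1.63 (0.63 to 2.76), with too few UMIs for a call, and 0.49 (-0.53 to 1.73). For TFAP2E, and for TFAP2B in CTRL, the gates and the clusters did not give the same direction. The log2 ratio of LHX1 over ISL1 cells was -0.48 (-1.04 to 0.08) in CTRL and -1.31 (-1.92 to -0.65) in OTX2CRISPR for TFAP2E, where the HC1-like cluster was above the HC2-like one, and -0.24 (-0.42 to -0.06) for TFAP2B in CTRL, where the clusters gave 0.38.

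The cells with neither gene had the least TFAP2E of the 3 groups and the most TFAP2C. TFAP2E was at 186 in LHX1 cells, 259 in ISL1 cells and 23.1 in cells with neither in CTRL, and at 112, 277 and 66.4 in OTX2CRISPR. TFAP2C was at 63.2, 94.1 and 296 in CTRL and at 99.8, 113 and 160 in OTX2CRISPR. The cells with neither thus had 4.68-fold more TFAP2C than LHX1 cells in CTRL and 1.61-fold more in OTX2CRISPR, where 5.01% and 1.01% of genes were at least 2-fold higher. Against ISL1 cells the log2 ratio of TFAP2C was 1.65 (1.05 to 2.32) in CTRL, and in OTX2CRISPR it was 0.51 with an interval across 0 (-0.42 to 1.57). TFAP2E had 20 and 29 UMIs in the cells with neither and 66 and 27 in ISL1 cells, fewer than the 100 UMIs needed for a call, with log2 ratios of -3.49 (-4.29 to -2.74) and -2.06 (-2.87 to -1.25). TFAP2B was 1.77-fold lower in the cells with neither than in ISL1 cells of CTRL and 2.40-fold lower in OTX2CRISPR, where 4.18% and 2.1% of genes were at least 2-fold lower. TFAP2A was at 1739 and TFAP2B at 1163 in these cells in CTRL, so both genes were present there also.

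Between libraries the AP-2 levels of ISL1 cells differed by less than counting error, with log2 ratios of 0.06 (-0.24 to 0.34) for TFAP2A, 0.04 (-0.20 to 0.28) for TFAP2B and 0.10 (-0.60 to 0.76) for TFAP2E, from 85 and 37 cells. LHX1 cells had less TFAP2B (-0.52, -0.68 to -0.37) and TFAP2E (-0.74, -1.22 to -0.23) in OTX2CRISPR, and TFAP2A at a ratio within counting error (-0.05, -0.15 to 0.06). The cells with neither differed in more members. TFAP2A (-0.35), TFAP2B (-0.40) and TFAP2C (-0.88) were lower in OTX2CRISPR, and TFAP2D (0.84, 0.32 to 1.35) and TFAP2E (1.52, 0.65 to 2.42) were higher. The TFAP2D rise was not seen within either cluster. In HC2-like cells with neither, TFAP2D was at 74.9 in CTRL and 77.5 in OTX2CRISPR (64 and 22 UMIs). In HC1-like cells with neither it was at 504 and 268, from 4 and 76 cells (6 and 41 UMIs). Over all cells with neither, the HC1 marker list summed to 1083 CPM in CTRL and to 4329 in OTX2CRISPR. The part of this difference in the AP-2 ratios was not tested. The TFAP2E ratio rests on 20 and 29 UMIs, too few for a call.

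**Figure D5:**
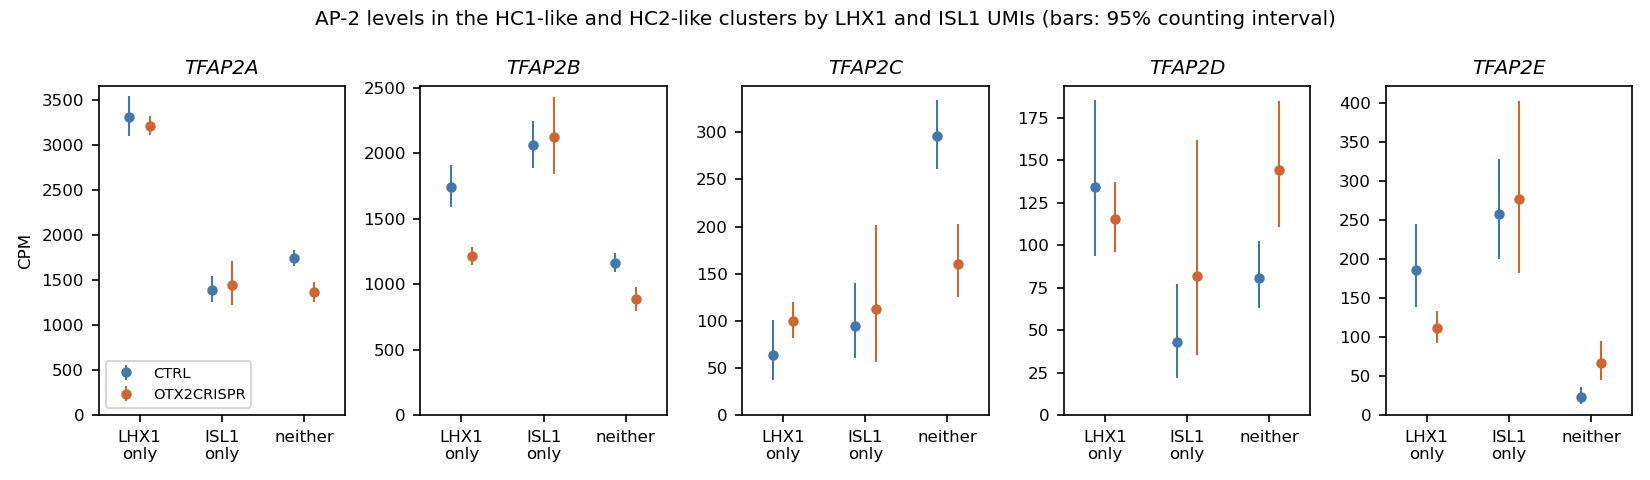
CPM of each AP-2 gene (vertical axes, 1 scale per gene) in HC-like cells with LHX1 only, with ISL1 only and with neither, in CTRL and OTX2CRISPR, with 95% counting intervals. TFAP2A is highest in LHX1 cells (3314 and 3210), TFAP2B in ISL1 cells (2061 and 2123), and TFAP2C in the cells with neither (296 and 160).

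Called phase also went with the levels in HC-like cells, in different directions in the 2 clusters. In OTX2CRISPR HC1-like cells TFAP2A was at 3864 in G1 and 2510 in S or G2/M, and TFAP2D at 56.6 and 232. In CTRL HC2-like cells TFAP2C was higher in G1 (267 against 79.7), whereas TFAP2E (52.5 against 271) and TFAP2B (1296 against 1982) were higher in S or G2/M. In OTX2CRISPR HC2-like cells the order was the same, with TFAP2C at 223 and 119, TFAP2E at 59.1 and 237, and TFAP2B at 1214 and 1516. HC1-like cells had the opposite order for these last genes. In CTRL TFAP2E was at 330 in G1 and 103 in S or G2/M, from 40 and 14 UMIs, and in OTX2CRISPR the difference was within counting error. The log2 ratio of S or G2/M over G1 for TFAP2B in HC1-like cells was -0.33 (-0.60 to -0.06) in CTRL and -0.43 (-0.59 to -0.27) in OTX2CRISPR. The mixture of cells in the HC2-like cluster differed in the same genes as its phases. In CTRL its ISL1 cells had 96.0 CPM of TFAP2C, 260 of TFAP2E and 2056 of TFAP2B. Its cells with neither LHX1 nor ISL1 had 297, 23.4 and 1172. The parts of phase and of this mixture were not tested apart.

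Over all cells outside the HC-like clusters TFAP2A, TFAP2B, TFAP2C and TFAP2E were at 14.6 CPM or less. TFAP2B in all these other cells rose from 6.32 to 14.6 CPM (84 and 169 UMIs), a log2 ratio of 1.21 (0.83 to 1.61), past the 2-fold reached upwards by 6.85% of genes there. TFAP2A had 0.41 (0.07 to 0.75) in the same cells. In the BRINP2/CRABP1 cells of OTX2CRISPR, 94 TFAP2B UMIs were found in 56 of 1790 cells, and 49 TFAP2A UMIs in 36 cells. The log2 ratio of TFAP2A over TFAP2B was -0.94 (-1.47 to -0.43) there. In the same library it was 1.47 in HC1-like cells, -0.23 (-0.40 to -0.07) in HC2-like cells and -0.55 (-0.87 to -0.24) in HC-like cells with ISL1 only. In RGC-like cells of OTX2CRISPR, 21 of the 27 TFAP2A UMIs came from 5 cells. Of the 28 TFAP2E UMIs in BRINP2/CRABP1 cells, 57.1% came from 5 cells.

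Of 12 AP-2 cofactors and inhibitors, 11 were in the gene tables and 10 had enough UMIs. KCTD15 and KCTD1, which block AP-2 activity, were higher in HC-like cells than in all others in both libraries. KCTD15 was at 230 against 12.4 CPM in CTRL and at 122 against 17.7 in OTX2CRISPR. KCTD1 was at 57.7 against 12.0 in CTRL and at 53.9 against 18.2 in OTX2CRISPR. In CTRL CITED4, a coactivator, was the other cofactor at least 2-fold higher and WWOX the cofactor at least 2-fold lower. These are 3 of 10 higher and 1 of 10 lower in CTRL, beside 6.94% and 16.3% of all genes, and 2 higher and 0 lower in OTX2CRISPR, beside 5.32% and 8.34%. The median log2 ratio of the list was 0.15 in CTRL and 0.24 in OTX2CRISPR, beside -0.06 and 0.01 over all genes. Between libraries WWOX was at least 2-fold lower, as were 3.93% of all genes, and the median was -0.04, beside 0.04 over all genes. In HC2-like cells KCTD15 went from 245 in CTRL to 101 in OTX2CRISPR, past the 2-fold that 0.792% of genes reached downwards.

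Of 15 horizontal and amacrine genes, 11 of 13 with enough UMIs were at least 2-fold higher in HC-like than in all other CTRL cells and 10 of 14 in OTX2CRISPR, beside 6.94% and 5.32% of all genes, with FOXN4, a progenitor gene of these fates, at least 2-fold lower in both. Several of them served as cluster markers, so this is no independent result. Between whole libraries 8 of 14 were at least 2-fold higher in OTX2CRISPR and none lower, beside 6.21% and 3.93% of all genes, with a median log2 ratio of 1.34 beside 0.04. In HC1-like cells none of the 10 tested passed 2-fold in either direction, beside 1.8% of all genes upwards and 0.655% downwards. In HC2-like cells PTF1A and LHX1 were at least 2-fold higher among 11 tested, beside 1.17% of all genes. HC2-like cells with LHX1 only numbered 19 in CTRL and 54 in OTX2CRISPR. In restricted RPC-like cells, where TFAP2D was lower, PROX1 and PAX6 were at least 2-fold higher among 6 tested, beside 1.56% of all genes.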

How the data were processed

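The authors aligned the reads to GRCg6a with the 10X pipeline (Cell Ranger) and deposited UMI counts per gene and called cell barcode for each library, without normalization. From these counts the cell filter (200 to 2500 genes, at most 0.4% of UMIs from 16 mitochondria-related and 50% from 80 ribosomal genes) and the clustering followed the study's code in R 4.3.3 with Seurat 5.3.0 (33 principal components, resolution 0.6). Of 670 variable genes 600 entered, without the 70 AP-2, marker and other listed genes. A cluster took a class name with at least 3 raised markers, the highest mean ratio and the class's score leading in at least 50% of its cells. The deposited totals were 15177210 UMIs in 5128 CTRL barcodes and 13366081 in 4953 OTX2CRISPR barcodes.

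Levels are summed UMIs per 1000000 (CPM) of a class and library with exact Poisson intervals, ratios have conditional binomial intervals, and shares have Clopper-Pearson intervals after thinning to 1000 UMIs per cell, computed in Python 3.11.15 with numpy 2.4.6, scipy 1.17.1, pandas 2.3.3 and scanpy 1.11.5. A ratio was called against 2-fold and set beside the share of all genes only where the gene had at least 100 UMIs in both sets together. Likeness used log2(CPM + 10). The genes named are the 5 members, fixed lists of cofactors and of horizontal and amacrine genes, OTX2, annotated neighbours and the 5 most alike genes per member. Members and lists were chosen with earlier results of these data known. Scrublet called too few doublets to have worked, and doublets were kept. The ratio step was tested on simulated counts. Alternatives were other scalings, clusterings, thinnings, gates and cell sets. Coordinates and sequences were not used here.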

Additional observations from a re-analysis of the deposited data

Results flagged for a closer look

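Some ratios went opposite ways in sets of cells, and the differences between them were not tested. TFAP2A was lower in OTX2CRISPR in HC2-like cells (log2 ratio -0.63) and higher outside the HC-like clusters (0.41). TFAP2B was lower in HC1-like cells (-0.63) and higher outside the HC-like clusters (1.21). TFAP2D was higher in HC-like cells with neither LHX1 nor ISL1 (0.84) and lower outside the HC-like clusters (-0.63). Within HC2-like cells with neither, however, TFAP2D was at 74.9 CPM in CTRL and 77.5 in OTX2CRISPR. The group with neither had 4 HC1-like cells in CTRL and 76 in OTX2CRISPR. The log2 ratio of TFAP2A over TFAP2B in HC2-like cells was 0.25 in CTRL and -0.23 in OTX2CRISPR.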

How the results depend on the processing

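No paired analysis was possible because each condition had 1 library. Signs were checked for whole-library ratios, for TFAP2D in the named classes (cones pooled) and for the other members in the HC-like clusters. Ratios in the unnamed cluster, in all cells outside the HC-like clusters and in the LHX1 and ISL1 groups were not checked. No checked ratio between libraries whose interval excluded 0 changed sign under the alternatives tried. Of those with intervals across 0, TFAP2D in multipotent RPC-like cells went from -0.35 to 0.23 without cell cycle regression and to 0.43 without the highest doublet scores, TFAP2D in BRINP2/CRABP1 cells from 0.29 to -0.16 with marker and AP-2 genes kept, TFAP2A in HC1-like cells from -0.00 to 0.40 without cell cycle regression, and TFAP2D in cone-like and TFAP2E in HC2-like cells, both near 0, also changed sign. Grouping by LHX1 and ISL1 in place of clusters turned TFAP2E and, in CTRL, TFAP2B, as the report gives. With equal weight per cell the whole-library log2 ratios were 1.06 for TFAP2A, 0.30 for TFAP2B and -0.56 for TFAP2D, and scaling by the median of gene ratios gave -0.69 for TFAP2D. TFAP2D in restricted RPC-like cells had a log2 ratio of -0.98 at resolution 1, -0.76 with marker and AP-2 genes kept, -0.72 without cell cycle regression, -1.05 with classes from marker gates and, chosen after seeing the data, -0.49 in S or G2/M cells. With these gates 2 class ratios passed 2-fold, where 0 did otherwise. When a positive cell needed 2 UMIs, 2 members and not 4 were more frequent in the HC-like clusters than in cones in OTX2CRISPR. Resolution 0.4 merged the HC1-like and HC2-like clusters and gave no separate values. Co-detection was compared between settings only for TFAP2A with TFAP2B in the HC-like clusters and for TFAP2C and TFAP2E with ISL1 in HC2-like cells. All 24 values so recomputed stayed within the main intervals. The same held for all 8 recomputed values of TFAP2A over TFAP2B in LHX1 or ISL1 cells. The other co-detection pairs were not compared in this way. The absence of replicates, the 33 to 39 cells per cone class in OTX2CRISPR and the 90 HC1-like cells of CTRL limit what the counts can show.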
